A study of Mus musculus with 13 samples.

Results

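Rn7sk, Rpph1, Rmrp and Terc are small RNAs that work as RNA and are not translated, and their levels in mouse thymocytes and other immune cells are described here. The 4 RNAs were chosen by symbol after their unequal levels between barcoding wells had been seen in these data, so the levels by well are given as a description with no test. The 4 symbols correspond to 6 of the 57010 rows of each gene list, 1 row each for Rn7sk (ENSMUSG00002076161) and Rpph1 (ENSMUSG00000092837), 2 rows for Rmrp (ENSMUSG00000088088, ENSMUSG00000115420) and 2 rows for Terc (ENSMUSG00000118406, ENSMUSG00002075569), whose unique molecular identifiers (UMIs, each standing for 1 captured molecule) were summed.

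In split-pool barcoding, fixed cells of each sample are placed in their own wells for reverse transcription with a first barcode, and are then pooled and redistributed over further barcoding rounds. The Parse whole transcriptome (WT) kit held 20 samples in 48 first-round wells, and the Parse Mini kit held 4 samples in 12 wells. Each kit was sequenced as aliquots of 1 pool of barcoded cells (9 sublibraries of Parse WT and 2 of Parse Mini), and the tissue sample and first-round well of a cell were taken from the deposited cell tables. The 4 thymic samples of Parse WT, tenxP_1 to tenxP_4, are the thymic lobes of 2 untreated female C57BL/6N mice aged 2 months, and those of Parse Mini, T-1-A, T-1-B, T-2-A and T-2-B, are lobes of 2 other such mice. The tables do not say which WT lobes came from the same mouse. The 16 other samples of Parse WT (CVS_C_1 to CVS_C_5, CVS_S_1 to CVS_S_6 and YD_C_1 to YD_C_5) filled the capacity of the kit. The study's text calls them unrelated and non-thymic, and the labels give thymus and spleen, young and adult mice, and control and chronic stress for the library as a whole, with no key per sample, so they are used as a range. The wells of 1 sample hold cells of 1 suspension.

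Rn7sk (7SK RNA) is transcribed by RNA polymerase III and holds the elongation kinase P-TEFb in an inactive particle with Larp7, Mepce and Hexim proteins. Rpph1 is the catalytic RNA of RNase P, which trims the 5′ ends of transfer RNAs. Rmrp is the related RNA of RNase MRP, which cuts ribosomal RNA precursors, and Terc is the template RNA of telomerase. None of them carries the long poly(A) tail of a messenger RNA. Reverse transcription in split-pool barcoding is primed with a mixture of oligo(dT) and random hexamers, so that RNAs without a tail can be counted.

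The 3′ ends of the 4 RNAs are shown because a poly(A) tail is what oligo(dT) binds. Sequences are those of the GENCODE M21 genes on GRCm38, written 5′ to 3′ as the RNA strand with T for U, and capitals mark runs of 3 or more A or T. The IDs of Rn7sk and Terc in the deposited gene lists were not found in GENCODE M21, and their positions were taken by symbol.
Rn7sk, bases 292 to 331: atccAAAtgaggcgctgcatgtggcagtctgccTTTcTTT
Rpph1, bases 269 to 319: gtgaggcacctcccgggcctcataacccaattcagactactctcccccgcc
Rmrp, longer entry, bases 242 to 281: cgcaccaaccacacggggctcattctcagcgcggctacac
Terc, bases 384 to 423: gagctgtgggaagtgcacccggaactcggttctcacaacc
The longest run of A was 3 bases in Rn7sk, 2 in Rpph1, 3 in Rmrp and 5 in Terc over the whole genes, and only Rn7sk ended in a run of T, of 3 bases. The remainder of Rn7sk, the most abundant of the 4, is shown since its A content is what oligo(dT) could bind inside the RNA.
Rn7sk, bases 1 to 300: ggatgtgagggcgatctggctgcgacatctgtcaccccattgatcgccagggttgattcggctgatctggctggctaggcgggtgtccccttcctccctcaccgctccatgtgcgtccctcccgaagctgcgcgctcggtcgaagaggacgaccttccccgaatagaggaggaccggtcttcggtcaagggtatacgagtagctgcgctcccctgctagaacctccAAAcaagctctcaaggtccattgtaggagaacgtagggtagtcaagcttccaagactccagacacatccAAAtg
Those bases hold 2 runs of 3 A and no such run of T.

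Rn7sk lies at chr9:78175303-78175633 on the minus strand (331 bases, GC content 58.0%), between Ick and C920006O11Rik, whose nearest ends are 3196 and 281 bases away. C920006O11Rik had 79 UMIs in Parse WT against 1257925 of Rn7sk, and Ick 16291. Rn7sk UMIs were found in 71.7% of Parse WT cells and 67.3% of Parse Mini cells. Terc, at chr3:96414437-96414859 on the minus strand (423 bases), overlapped no annotated gene. Rmrp has 2 nested entries on the minus strand, chr4:43492783-43493063 (281 bases) and chr4:43492788-43493058 (271 bases), which differ by 5 bases at each end. The longer entry took 637 of the 3819 Rmrp UMIs of Parse WT (16.7%), and Ccdc107 overlapped Rmrp by 164 bases on the opposite strand.

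Rpph1 lies at chr14:50807449-50807767 on the minus strand (319 bases). Bases 36 to 268 of Rpph1 are also the first exon of a transcript of Ccnb1ip1, a ubiquitin ligase gene on the same strand (chr14:50807500-50807732, 233 bases), so that 2 stretches of Rpph1 lie outside this exon. The 3′ stretch above still lies within the Ccnb1ip1 gene, which covers 284 bases of Rpph1, and the following 5′ stretch lies outside that gene.
Rpph1, bases 1 to 35: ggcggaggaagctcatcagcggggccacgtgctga
Ccnb1ip1 held 434961 UMIs in Parse WT, more than the 336918 of Rpph1. Over the 48 wells of Parse WT the log2 levels of the 2 genes, each as a deviation from its sample, moved together (r = 0.939, n = 48 wells that share a library), and r was 0.824 over the 12 Parse Mini wells. The ratio of Rpph1 to Ccnb1ip1 UMIs lay between 0.613 and 1.05 in the thymic wells of Parse WT and between 0.418 and 2.03 in Parse Mini. The sources used here do not say how reads in the shared bases were divided, so every value of Rpph1 holds for Rpph1 as counted and is uncertain as a share of this locus.

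The 8 thymic wells of Parse WT held 334948082 UMIs in 41838 cells, from 14932966 to 89426937 UMIs a well. The 12 Parse Mini wells held 120510449 UMIs in 20085 cells, and the 40 other WT wells 441818865 UMIs in 86786 cells. Levels are UMIs per 1000000 UMIs outside the ribosomal RNAs Rn18s-rs5, mt-Rnr1 and mt-Rnr2 (CPM), which made up 12.3% to 37.4% of the UMIs of a WT well. In a sum over the cells of a well, fewer expressing cells and less RNA per cell cannot be told apart. Clusters made without the 4 RNAs put 16149 of 39369 thymic WT cells that passed quality control in DP-R-like clusters (resting CD4+CD8+ double-positive, with Rag1 and Rag2), 9378 in selected or mature T-like and 8994 in cycling-like clusters. In Parse Mini these were 9407, 4460 and 3501 of 19273 cells, so both sets held thymocytes as labelled. Of the barcode combinations, 19867 of 103602 occurred in 2 or more sublibraries of Parse WT, and 1360 of 18725 in Parse Mini, and each was kept as a separate cell per sublibrary.

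By the median over wells Rn7sk was the most abundant of the 4 RNAs, and by the pooled SD the most unequal between wells of the same sample. Rpph1 was above it in some wells, and the largest fold within a Mini lobe was that of Rpph1. The level of Rn7sk was 283 CPM in well C7 and 11749 CPM in well C8 of tenxP_1, which held 2089 cells each. It was 939 and 1926 CPM in C9 and C10 of tenxP_2, 386 and 4700 CPM in C11 and C12 of tenxP_3, and 2020 and 412 CPM in D1 and D2 of tenxP_4. The wells of 1 lobe thus differed by 41.5, 2.05, 12.2 and 4.91-fold, and the 4 lobes as a whole stood at 5926, 1499, 2927 and 1580 CPM.

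In Parse Mini, Rn7sk stood at 174, 1072 and 1283 CPM in A1, A2 and A3 of T-1-A. It stood at 931, 382 and 1202 CPM in A4, A5 and A6 of T-1-B, at 186, 431 and 1663 CPM in A7, A8 and A9 of T-2-A, and at 210, 2450 and 349 CPM in A10, A11 and A12 of T-2-B. Within each of these lobes the highest well was 3.15 to 11.7-fold above the lowest. In the 40 wells of the 16 other WT samples the level ran from 138 CPM in B4 through a median of 541 to 11982 CPM in B1, and the wells of 1 sample differed 2-fold or more in 13 of the 16 samples, by 51.3-fold in CVS_S_2.

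Rn7sk was the 1 gene among 10280 with at least 50 UMIs in each thymic well of Parse WT that differed 2-fold or more between wells in all 4 lobes, where such genes were 0.00973% of all. In Parse Mini they were 6 of 8550 (0.0702%): Rn7sk, Cntn5, H1f1, Gm15564, Scarna2 and Gm19951. These names are outside the rule for named genes and were taken after the values were seen, and since the members were chosen on this contrast, nothing is read from their presence.

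**Figure D1:**
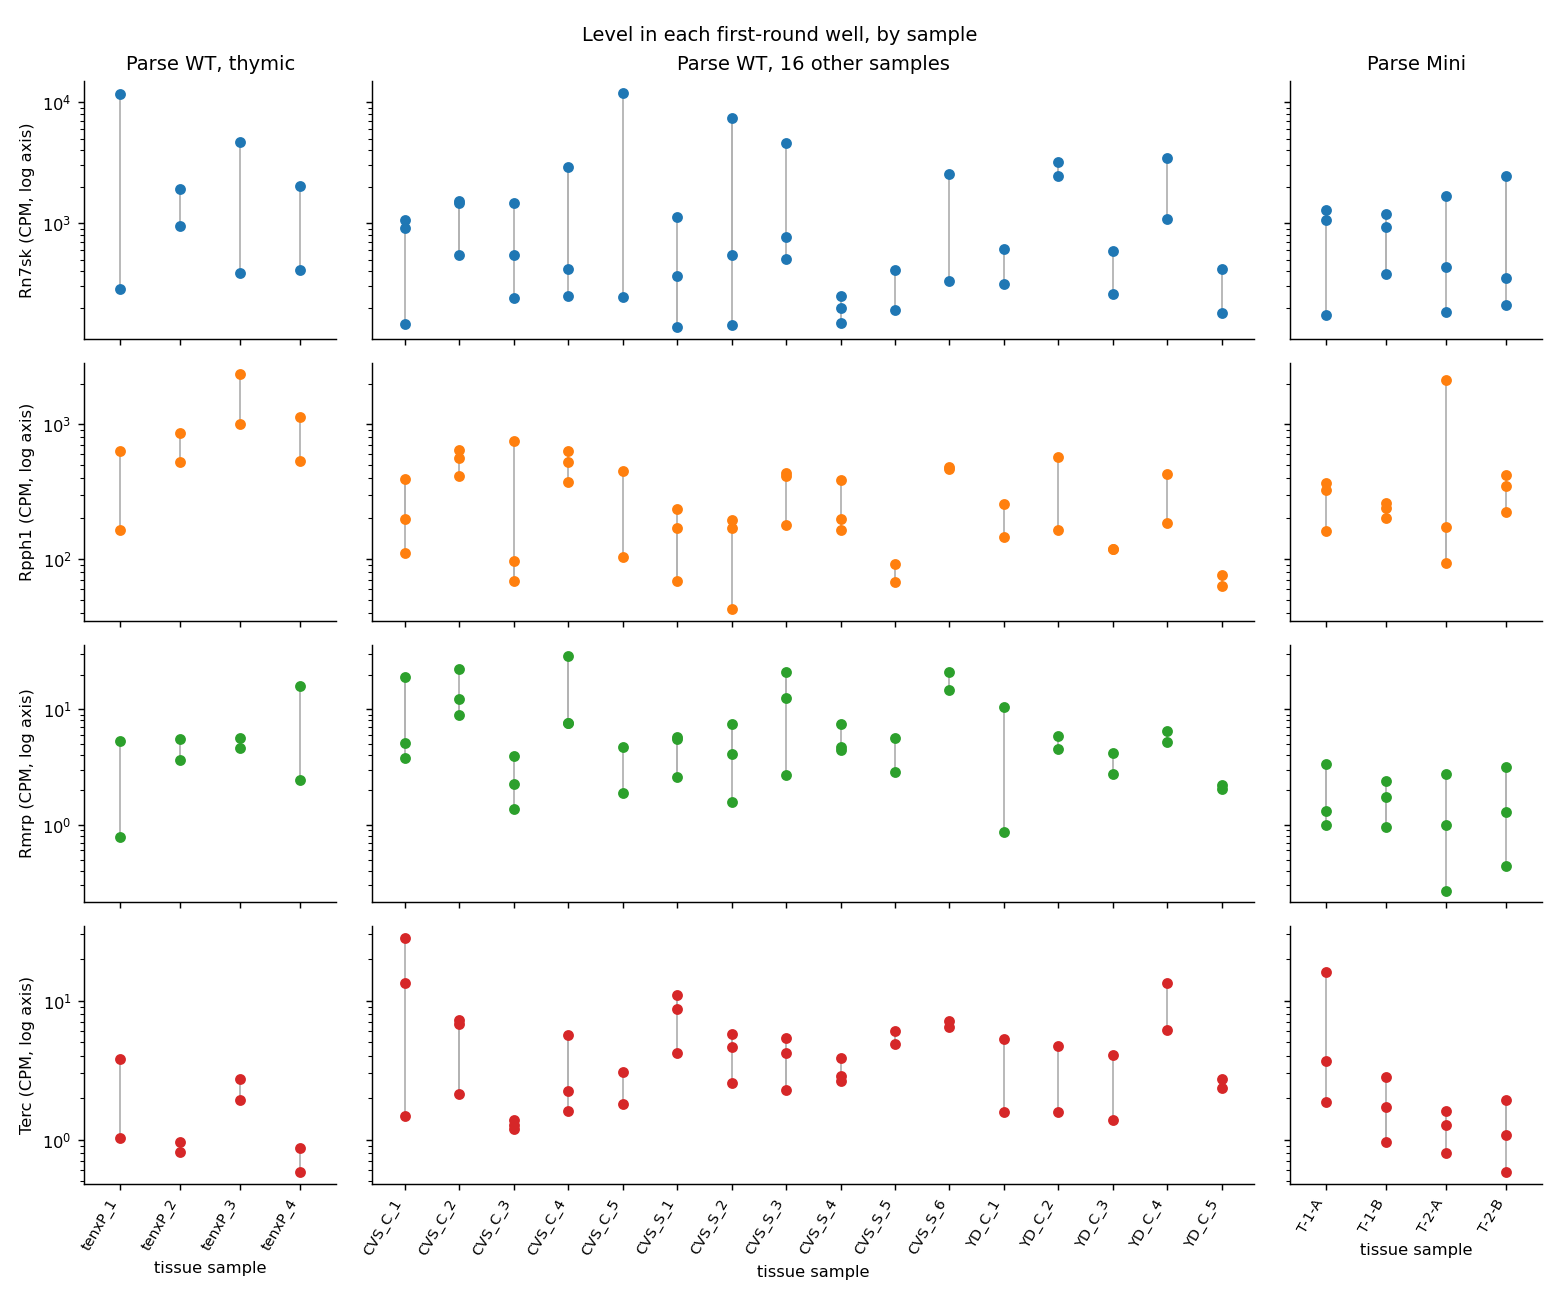
Level of each RNA in every first-round well. Each point is 1 well, points on 1 vertical line are wells of 1 sample, and the vertical axes show CPM outside ribosomal RNA on log scales. Rn7sk spans 283 to 11749 CPM in the 2 wells of tenxP_1, and Rpph1 spans 92.9 to 2143 CPM in the 3 wells of T-2-A.

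Rpph1 differed less between wells than Rn7sk in the thymic WT samples. Its level was 165 and 637 CPM in C7 and C8, 867 and 527 CPM in C9 and C10, 2339 and 998 CPM in C11 and C12, and 1129 and 530 CPM in D1 and D2, a difference of 3.85, 1.64, 2.34 and 2.13-fold. The well with more Rn7sk was the one with less Rpph1 in tenxP_2 and tenxP_3, and the one with more in tenxP_1 and tenxP_4. In Parse Mini, Rpph1 stood at 326, 367 and 160 CPM in T-1-A, at 240, 262 and 201 CPM in T-1-B, at 174, 92.9 and 2143 CPM in T-2-A, and at 223, 349 and 418 CPM in T-2-B, wells in number order. Well A9 stood apart: without T-2-A, whose wells differed 23.1-fold, no lobe differed by more than 2.29-fold.

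Rmrp and Terc were far scarcer. Per kilobase of gene, the median level over all WT wells was 1638 CPM for Rn7sk, 770 for Rpph1, 18.4 for Rmrp on the longer entry and 7.05 for Terc. Rmrp lay between 0.791 CPM in C7, from 10 UMIs (exact 95% Poisson interval 0.379 to 1.45 CPM, counting error only), and 15.8 CPM in D1, from 1116 UMIs, in the thymic WT wells. The wells of 1 lobe differed 6.71, 1.52, 1.22 and 6.47-fold. In Parse Mini it lay between 0.269 CPM, from 2 UMIs in A7, and 3.36 CPM, from 33 UMIs in A2. Terc lay between 0.581 and 3.83 CPM in the thymic WT wells, from 13 to 62 UMIs a well, and between 0.582 and 16.1 CPM in Parse Mini. Its highest Mini well was A3, and its highest well among the other WT samples was also A3, at 28.2 CPM from 30 UMIs.

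Counting error was a small part of the spread of the 2 abundant RNAs. The SD of log2 CPM between wells of 1 sample, pooled over the 20 WT samples, was 1.82 for Rn7sk against a counting SD of 0.0351, and 0.930 for Rpph1 against 0.0518. For the scarce RNAs it was 1.04 against 0.312 (Rmrp) and 0.874 against 0.353 (Terc). The median over the 4256 other genes with at least 50 UMIs in every WT well, ribosomal RNAs left out, was 0.157 (median counting SD 0.0683). Of these genes 0, 4, 2 and 4 had an SD as large as Rn7sk, Rpph1, Rmrp and Terc. The 4 RNAs were chosen for unequal wells, so nothing is read from these ranks. Rmrp and Terc, with as few as 4 and 2 UMIs in a WT well, would not pass the filter of the genes compared. In the 4 thymic samples alone the SDs were 2.46, 0.935, 1.36 and 0.716, and in Parse Mini 1.53, 1.27, 1.15 and 0.985. Without tenxP_1 the thymic value of Terc was 0.327, and without T-2-A the Mini value of Rpph1 was 0.474, so that each rested largely on 1 lobe.

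**Figure D2:**
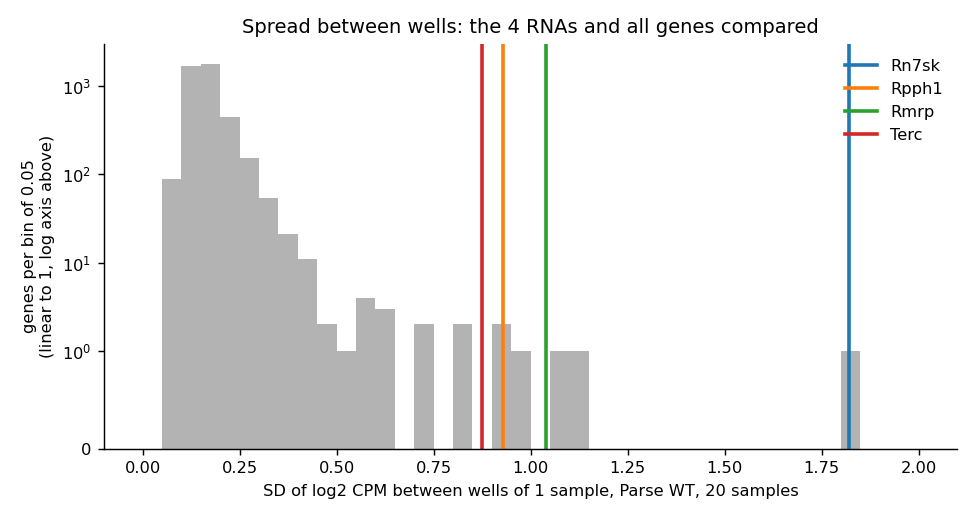
Spread between wells of 1 sample in Parse WT. Bars count the 4261 genes with at least 50 UMIs in every well, Rn7sk, Rpph1 and the ribosomal RNAs included, by their SD of log2 CPM, pooled over 20 samples, and coloured lines mark the 4 RNAs. The median gene is at 0.157, and Rn7sk at 1.82 is the gene farthest to the right. The 4 RNAs were chosen for unequal levels between wells.

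The same well in different sublibraries gave similar levels of Rn7sk and Rpph1. The SD of log2 Rn7sk over sublibraries of 1 first-round well was 0.139 in Parse WT (counting SD 0.102) and that of Rpph1 was 0.184 (counting SD 0.151). The sublibrary comparison of Parse WT covered 8 of its sublibraries. For Parse Mini the SDs were 0.0647 for Rn7sk (counting SD 0.0359) and 0.191 for Rpph1 (counting SD 0.0483), so Rpph1 varied there well beyond counting. After the first-round well was taken into account, Rn7sk varied with an SD of 0.107 over 94 second-round wells and of 0.0603 over 96 third-round wells, and Rpph1 with 0.106 and 0.0660. In Parse Mini, Rpph1 varied more over the later rounds, with 0.287 over 91 second-round and 0.234 over 94 third-round wells. For Rn7sk and Rpph1 these differences were smaller than those between first-round wells of the same sample. The RNAs were chosen for unequal first-round wells, and the step at which their differences arose was not tested.

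Wells A1 to A12 exist in both kits and hold different cells: in Parse WT those of CVS_C_1 to CVS_C_4, in Parse Mini those of the 4 thymic lobes, both in groups of 3 wells. Rn7sk had a similar level at the same position. It was 147, 1065 and 904 CPM in A1, A2 and A3 of Parse WT beside 174, 1072 and 1283 CPM in Parse Mini, 1514, 542 and 1472 CPM in A4, A5 and A6 beside 931, 382 and 1202 CPM, 239, 542 and 1462 CPM in A7, A8 and A9 beside 186, 431 and 1663 CPM, and 251, 2930 and 418 CPM in A10, A11 and A12 beside 210, 2450 and 349 CPM. Over the 12 positions the median fold between the kits was 1.21 and the largest 1.63, in A4. The deviations of log2 Rn7sk from the sample mean had r = 0.990 (rho = 0.979, n = 12 wells, 0.984 without the 2 wells farthest from the median), and all 12 wells lay on the same side of their sample's mean in both kits. The median of this r over 4231 genes was 0.614, so wells share a pattern in most genes.

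Rpph1 gave r = 0.965, with 11 of 12 wells on the same side, and its high well A9 was the highest of the 12 in both kits, at 747 CPM in Parse WT and 2143 CPM in Parse Mini. Terc gave r = 0.881 and Rmrp r = 0.818, the latter at a median 5.42-fold difference in level between the kits. Among the ribosomal RNAs, mt-Rnr1 of the mitochondrial small subunit gave r = 0.989 and Rn18s-rs5 r = 0.695. These are descriptions over wells that share a library. What differs between well positions was not tested.

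**Figure D3:**
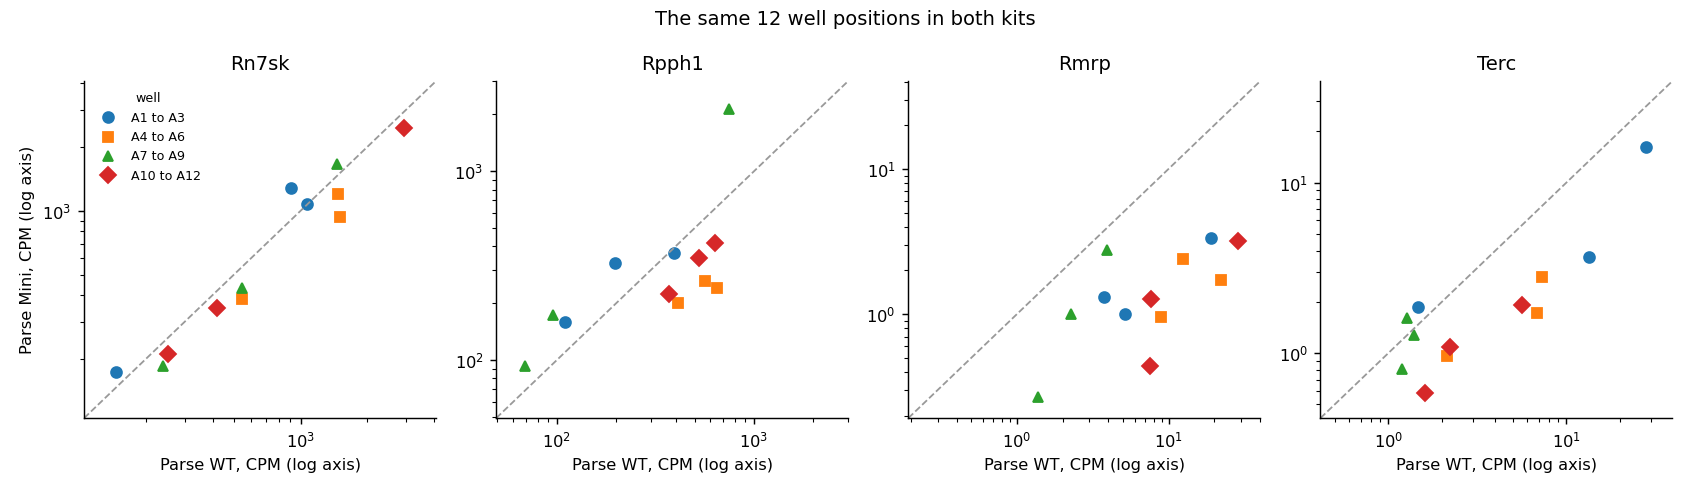
Levels in wells A1 to A12 in both kits. The horizontal axes show CPM in Parse WT and the vertical axes CPM in Parse Mini, on log scales, the dashed line marks equal levels, and symbols mark the 4 groups of 3 wells that hold 1 sample each. The 12 Rn7sk points lie along the line, with a largest fold of 1.63, and Rmrp lies below it in all wells.

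Among the classes with at least 20 cells in every well, the class took a small share of the spread of Rn7sk. The RNAs were chosen for unequal wells, which by itself favours a large well share and a small class share. Such shares were not computed for other genes, so nothing is read from their size. In a table of log2 CPM over 8 wells and 5 classes of the thymic WT samples, the well within its sample accounted for 94.7% of the sum of squares, the sample for 4.01% and the class for 0.239%, with 1.03% left over. In Parse Mini, over 12 wells and 3 classes, the shares were 96.9%, 2.67% and 0.178%. In the 16 other samples (B-like, monocyte-like and selected or mature T-like cells) they were 60.4%, 37.7% and 0.611%. With CPM relative to the mean in place of log2 CPM, where the high well C8 weighs most, the thymic WT values were 58.1% for the well, 25.6% for the sample, 1.89% for the class and 14.3% left over. Cycling against resting state, in a table of its own, took 0.190% in the thymic WT samples and 0.0227% in Parse Mini.

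The class share of Rpph1 in these tables was above that of Rn7sk. The shares of sample, well and class were 57.3%, 36.4% and 5.22% in the thymic WT samples and 5.11%, 87.3% and 6.87% in Parse Mini, and cycling state took 4.83% and 7.75%. With CPM relative to the mean the class share in Parse Mini was 2.21%. For Rmrp and Terc the class took 12.2% and 37.6% in the thymic WT samples, but counting error alone is worth 50.5% and 48.6% of their sums of squares, so these shares are not resolved. Over single cells, the first-round well, here with the differences between samples included, accounted for 86.5% of the variance of Rn7sk beyond counting in the thymic WT samples and the class for 0.850%, and for Rpph1 67.7% and 5.78%. The sample alone accounted for 20.8% and 32.9%. In Parse Mini the well accounted for 85.8% of it for Rn7sk and 67.0% for Rpph1, and the class for 0.462% and 0.756%. In the 16 other samples the well accounted for 69.6% and 49.7% and the class for 2.97% and 2.24%, so the order of the class shares was not the same in all sets. The choice of the RNAs by unequal wells bears on all of these shares.

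**Figure D4:**
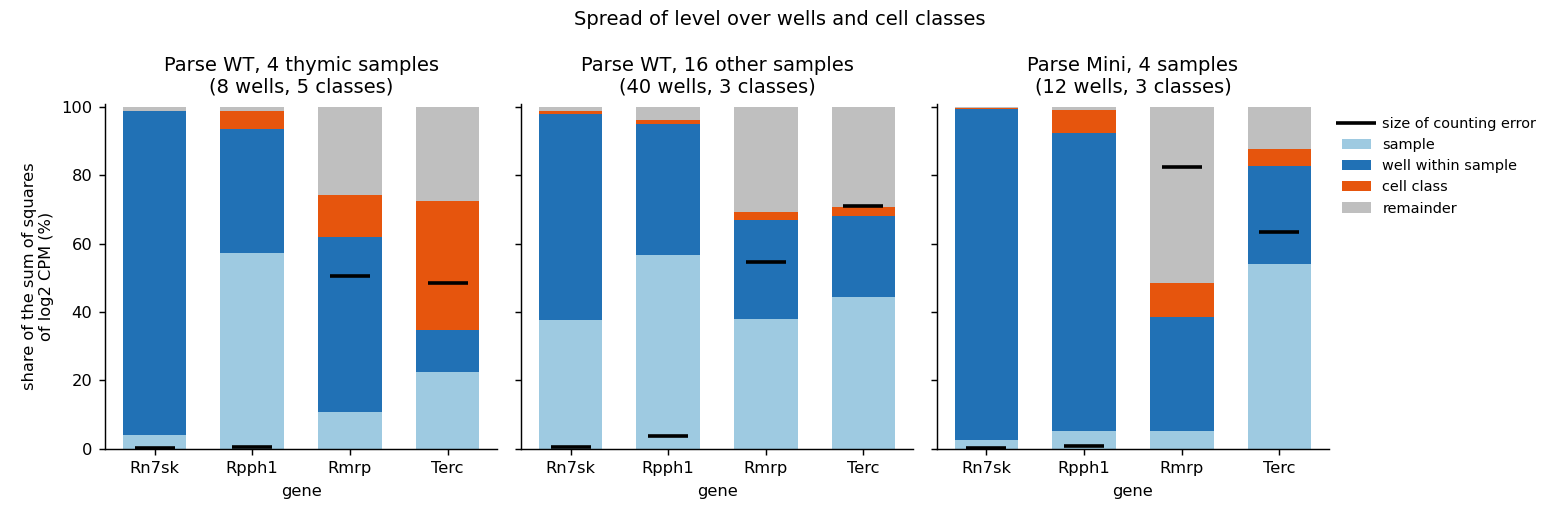
Shares of the sum of squares of log2 CPM over wells and cell classes. Stacked bars give the sample, the well within its sample, the class and the remainder in percent for each RNA, and the black mark gives the size of counting error on the same scale. The well within its sample takes 94.7% for Rn7sk in the thymic WT samples and 96.9% in Parse Mini.

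Levels of a class were compared with all cells of its own well. DP-R-like cells had more Rn7sk than their own well in 8 of 8 thymic WT wells (median log2 ratio 0.16, from 0.13 to 0.21) and in 10 of 12 Mini wells (median 0.08). DN-like cells, the double-negative stage with Il2ra and Notch3, were above their well in 8 of 8 wells (median 0.12) and in 9 of 11 Mini wells. Neutrophil-like cells of the thymic WT samples were below their well in 6 of 6 wells with at least 20 such cells (median −0.65), and in the other 16 samples plasma-like cells, which secrete antibody, were below in 28 of 28 (median −0.53). B-like cells of the thymic WT samples held 1.52 times the Rn7sk that their wells predict, but were above their well in 1 of 8 wells, C8, described below. In the 16 other samples the 2178 DP-R-like cells, which reached 20 cells in 20 of 40 wells and so did not enter the shares above, were farther from their wells: above in 18 of 20 wells (median log2 ratio 0.75, from −0.61 to 3.06), or 1.77 times what their wells predict. Their wells hold mostly other cell types, so these ratios and the thymic ones are not like for like. Arpp21, Rag1 and Dntt were among the leading genes of their cluster, while the study calls these samples non-thymic. The origin of these cells was not tested, so their ratios may not describe a class of their own well. Classes rest on clusters of these cells, so the values are given without a test.

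Rpph1 had another order of classes. Cycling-like cells were above their own well in 8 of 8 thymic WT wells (median log2 ratio 0.19) and 12 of 12 Mini wells (0.25), and DN-like cells in 8 of 8 (0.26) and 9 of 11 (0.34). DP-R-like cells were below in 8 of 8 (−0.23) and 12 of 12 (−0.37), and selected or mature T-like cells in 8 of 8 (−0.32) and 12 of 12 (−0.31). The DP-R-like cells of the 16 other samples, with a median of 1088 UMIs a cell, were above their well in 19 of 20 wells (1.30, from −0.37 to 3.81). The wells that they are set against differ, with a median Rpph1 level of 197 CPM there and 752 CPM in the thymic WT wells. The DP-R-like cells themselves had medians of 743 CPM (141 to 2485) there and 515 CPM (136 to 1845) in the thymic WT wells. The 2 ratios are thus not like for like. Neutrophil-like cells were above their well in Rpph1 in 6 of 6 thymic WT wells (0.83, 224 cells). In the 16 other samples, with 4719 such cells, Rpph1 was above in 17 of 34 wells (0.02) and Rn7sk in 7 of 34 (−0.21), but 2517 of those cells are a cluster with a median of 1134 UMIs a cell that is led by ribosomal protein genes, so the sets are not like for like. In the 16 other samples Terc was above its well in erythroid-like cells, the red cell precursors, in 29 of 35 wells, from 130 UMIs in all, and stood at 1.71 times what the wells predict. At so few UMIs a well, the added 0.5 UMI raises ratios of single wells, so the summed ratio is the firmer value.

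Well C8, the thymic WT well with the most Rn7sk, also held a cluster of its own. All 704 cells of 1 DP-R-like cluster came from C8, and 193 of the 301 cells (64.1%) of a B-like cluster with a median of 967 UMIs a cell did so as well. The Rn7sk level was 13237 CPM in the former and 30791 CPM in the C8 cells of the latter, in a well of 12218 CPM over the cells that passed quality control. Outside these clusters the DP-R-like and B-like cells of C8 had 14127 CPM (202 cells) and 11550 CPM (16 cells). Without these clusters the DP-R-like cells of C8 were thus still above the level of the well, and the B-like cells were below it.

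Shares of cells with a UMI followed the well as well. With each cell thinned to 1000 UMIs, Rn7sk was found in 19.3% of the cells of C7 and in 99.6% of those of C8, and in 12.5% (A1) to 83.9% (A11) of the cells of Mini wells. Without thinning the thymic WT wells ran from 56.0% to 99.8%. Rpph1 was found in 9.69% to 74.4% of thinned cells in the thymic WT wells, Rmrp in 0.0842% to 1.13% and Terc in 0.0193% to 0.216%. Between classes the thinned share of Rn7sk in the thymic WT samples was 43.3% in neutrophil-like cells and between 59.4% and 65.8% in the other named classes with a share here, cycling-like and DN-like at the ends, and 54.0% in the cells of unnamed clusters, a narrower range than that between wells. Every nucleated cell makes these RNAs, so no class gave a background level for free RNA, whose part in the levels was not tested.

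The cells with the most Rn7sk UMIs came mostly from 1 well in Parse WT and less so in Parse Mini. Of the 394 thymic WT cells in the top 1%, 318 (80.7%) came from C8, which held 5.01% of all cells, and of the 814 in the other samples 745 (91.5%) came from B1. In Parse Mini 110 of 193 (57.0%) came from A11. For Rpph1, 257 of 394 (65.2%) came from C11, 339 of 814 (41.6%) in the other samples from A9, and 185 of 193 (95.9%) in Parse Mini from A9. Depth moved with the level as well. Against what its well predicts, Rn7sk was 1.24-fold in thymic WT cells with 500 to 1000 UMIs and 0.973-fold in the deepest cells, and Rpph1 0.799-fold and 1.08-fold. The B-like cluster described above had a median of 967 UMIs a cell, and its 193 cells from C8 stood at 30791 CPM of Rn7sk. What part of the value in shallow thymic WT cells comes from that cluster was not tested. In Parse Mini these values were 0.919 and 1.05 for Rn7sk, the other order, and 0.894 and 1.16 for Rpph1.

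Cycling-like thymocytes were compared with resting ones (DP-R-like and selected or mature T-like) to ask whether cell state moves these RNAs. UMIs were summed per lobe and state and tested across all genes with edgeR's quasi-likelihood test, lobe as block, with Benjamini-Hochberg adjustment at 0.05. These fits scaled library sizes by edgeR's TMM factors with ribosomal RNA included, whereas the CPM listed leave it out. The 4 lobes of each kit come from 2 mice, so these p-values are too small. Cycling cells also held more UMIs, with medians of 8088 to 10373 against 2002 to 3175 in Parse WT, so values from cells of 3000 to 10000 UMIs in both states are given where the fit has them.

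Rpph1 was higher in cycling thymocytes in both kits. In Parse WT it stood at 363, 635, 1669 and 1040 CPM in the cycling cells of tenxP_1 to tenxP_4 and at 271, 455, 1163 and 762 CPM in the resting cells. The difference was 0.50 ± 0.03 on the log2 scale (SE, n = 4 lobes, adjusted p = 5.27e-09), higher in 4 of 4 lobes and in 8 of 8 wells. In Parse Mini it stood at 289, 209, 704 and 309 CPM in the cycling and 171, 140, 591 and 227 CPM in the resting cells of T-1-A, T-1-B, T-2-A and T-2-B. There the edgeR difference was also 0.50, with an SE of 0.09 (adjusted p = 0.0128), in 4 of 4 lobes and 12 of 12 wells, and it missed the threshold without T-1-B (adjusted p = 0.0677) or T-2-B (0.0529). With wells in place of lobes as the pairing term edgeR gave 0.51 and 0.57, and in cells of 3000 to 10000 UMIs 0.52 and 0.33 (adjusted p = 1.56e-08 and 0.0440). A gate took as cycling the cells with a UMI of Mki67 or Top2a after thinning to 1000 UMIs. All other thymic cells of at least 1000 UMIs that passed quality control, of any class, were its resting group. Under this gate edgeR gave 0.28 and 0.31 (adjusted p = 0.000265 and 0.00195). Its groups mix classes, so its values are not like for like with those of the clusters. With the clusters as states, Ccnb1ip1, with which Rpph1 shares an exon, was higher by 0.51 and 0.50. Unlike Rpph1, it was not removed by name before the clustering that set the states, so it may have contributed to them.

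In the fits over lobes with TMM scaling, Rpph1 and Terc passed as higher in cycling cells in Parse WT and Rpph1 in Parse Mini. None of the 4 RNAs passed as lower in these fits. Of all 15583 genes tested in Parse WT, 27.8% were higher and 27.0% lower, and of 13088 in Parse Mini 27.6% and 25.5%, so a call of this kind is common.

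Rn7sk differed little between the states. In Parse WT it stood at 4720, 1496, 2337 and 1570 CPM in cycling and at 5949, 1566, 2925 and 1716 CPM in resting cells, a log2 difference of −0.18 ± 0.06 that did not pass (edgeR adjusted p = 0.0560), though it was below 0 in 8 of 8 wells. In Parse Mini the levels were 820, 756, 656 and 917 CPM against 803, 803, 809 and 1055 CPM, a log2 difference of −0.14 ± 0.05 (edgeR adjusted p = 0.0672), below 0 in 3 of 4 lobes and 7 of 12 wells. With library sizes outside ribosomal RNA, as in the CPM, and no TMM scaling, Rn7sk passed as lower in both kits. There edgeR gave −0.21 (adjusted p = 0.0154) in Parse WT and −0.14 (0.0430) in Parse Mini. In those fits 30.4% and 25.9% of all genes were lower. The lobe sums mix wells whose levels differ many-fold. Within wells the difference was smaller and passed the threshold, at −0.12 ± 0.02 (edgeR adjusted p = 1.00e-06) in Parse WT and −0.06 ± 0.02 (0.0265) in Parse Mini, with the wells of 1 lobe as units. Wells of 1 lobe hold cells of 1 suspension and are not replicates, so these p-values are too small by more than those over lobes. DP-R-like cells alone as the resting group gave −0.36 and −0.25 (edgeR adjusted p = 0.0252 and 0.000371). In cells of 3000 to 10000 UMIs edgeR gave −0.27 (adjusted p = 0.0746) and −0.38 (0.000123). Single lobes decided the call: edgeR gave −0.23 without tenxP_2 (adjusted p = 0.0121), −0.22 without tenxP_4 (0.0172) and −0.11 without tenxP_1 (0.254) in Parse WT, and −0.19 without T-1-A (0.000109) and −0.08 without T-2-A (0.0779) in Parse Mini. These differences are small beside the 2.05 to 41.5-fold differences between wells of 1 lobe.

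Terc was higher in cycling thymocytes of Parse WT, by 0.79 ± 0.24 (edgeR adjusted p = 0.0123), from 89 UMIs in cycling and 57 in resting cells. It stood at 2.60, 1.09, 2.00 and 0.824 CPM against 1.13, 0.480, 1.57 and 0.493 CPM, higher in 4 of 4 lobes and 6 of 8 wells. DESeq2 gave an adjusted p of 0.0605, and the gate on Mki67 or Top2a gave 0.29 (edgeR adjusted p = 0.313). In Parse Mini the difference was 0.35 ± 0.27 (edgeR adjusted p = 0.305), from 69 and 59 UMIs. In cells of 3000 to 10000 UMIs Terc fell below the filter in Parse WT, so its call there has no value at matched depth, and stood at 0.51 in Parse Mini (edgeR adjusted p = 0.299). The difference between the kits was not tested. For Rmrp the differences were 0.22 ± 0.11 (edgeR adjusted p = 0.106) and 0.32 ± 0.34 (0.453), from 536 and 433 UMIs in Parse WT but 38 and 41 in Parse Mini. For Rmrp in Parse WT, edgeR gave 0.36 with DP-R-like cells alone as the resting group (adjusted p = 0.0257), 0.15 in cells of 3000 to 10000 UMIs (0.473), 0.03 under the gate (0.884) and 0.02 without the cycling cluster of the highest UMIs per cell (0.928), so the value depends on how the states are drawn.

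**Figure D5:**
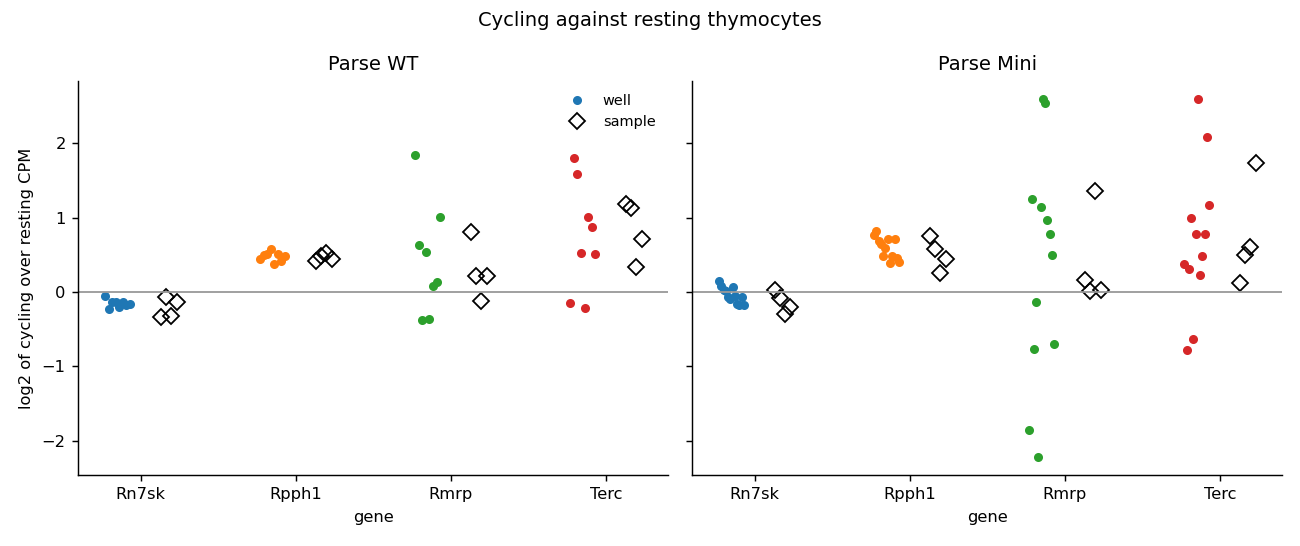
Log2 ratio of cycling to resting thymocytes for each RNA. Filled points are wells, with 0.5 UMI added to each sum, and open diamonds are samples, with the line at 0 marking equal levels. Rpph1 lies above 0 in all 8 and 12 wells, Rn7sk lies below 0 in all 8 WT wells and on both sides of 0 in Parse Mini, and Rmrp and Terc scatter widely.

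Genes for the protein partners of these RNAs were compared between the states as lists. These genes could contribute to the clusters that set the states, so the counts below are descriptions, to be read against the 27.8% of all genes higher and 27.0% lower in Parse WT and the 27.6% and 25.5% in Parse Mini. Of the 7SK particle, 3 of 7 genes tested were higher and 1, Ccnt2, lower in Parse WT, with a median log2 difference of 0.22, and 2 of 7 were higher in Parse Mini. Larp7, which binds and stabilises 7SK RNA, was higher by 0.75 ± 0.05 (edgeR adjusted p = 1.06e-08) and by 0.84 ± 0.06 (4.86e-11). The cyclin T partners of the kinase gave −0.14 (Ccnt2, edgeR adjusted p = 0.00154) and 0.07 (Ccnt1, 0.106) in Parse WT, and the kinase Cdk9 −0.03 (0.709). Ccnt1 and Ccnt2, with 2 of the list's 7 genes over 50 UMIs in every well, had SDs between wells of 0.134 and 0.132.

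Of the protein subunits of RNase P and RNase MRP, 3 of 10 tested were higher in cycling cells of Parse WT and 2 of 9 in Parse Mini, none was lower, shares of higher genes near or below those of all genes, and the median log2 differences were 0.17 and 0.24. Rpp30 was higher by 0.56 and 0.55 (edgeR adjusted p = 2.72e-05 and 5.33e-05), Rpp14 by 0.29 in Parse WT (0.00458), while Pop1 stood at 0.02 (0.855). Of the telomerase genes, 7 of 10 were higher and 1, Tep1, lower in both kits, with median log2 differences of 0.71 and 0.50. Dkc1, the pseudouridine synthase that binds Terc, was higher by 0.83 and 0.82 (edgeR adjusted p = 4.92e-08 and 1.91e-09), and Shq1, its assembly factor, by 0.87 in both. Of 30 genes of RNA polymerase III and its factors, 7 were higher and 7 lower in Parse WT, and 2 higher and 7 lower in Parse Mini, at or below the shares of all genes. Snapc3, a subunit of the complex that recruits the polymerase to promoters such as that of 7SK, was lower in both kits (edgeR log2 differences −0.44 and −0.42, adjusted p = 8.28e-08 and 2.27e-09). Brf1, of the factor that recruits the polymerase, gave −0.18 and −0.16 (edgeR adjusted p = 0.000431 and 0.00160), Gtf3c1 −0.09 and −0.17 (0.0229 and 0.000516) and Bdp1 0.06 and −0.05 (0.106 and 0.297).

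Ribosomal RNA, other RNAs without a tail and abundant messenger RNAs served as a contrast. Rn18s-rs5, the 18S ribosomal RNA, was higher in cycling cells by 0.29 and 0.44 (edgeR adjusted p = 2.15e-09 and 0.00887), and all 3 ribosomal RNAs were higher in both kits. Their SDs between wells were 0.246, 0.319 and 0.220 for Rn18s-rs5, mt-Rnr1 and mt-Rnr2. Of 60 tested RNAs without a poly(A) tail, most of them replication-dependent histone messenger RNAs made in S phase, 50 were higher and 2, H2ac25 and Scarna2, lower in Parse WT, and 46 of 52 higher and none lower in Parse Mini. Scarna2, a guide RNA of Cajal bodies, had an SD between wells of 0.588 and reached 1072 CPM in a WT well from a lowest of 71.6 CPM. The contrast messenger RNAs Actb, Ptprc, Cd247 and Eef1a1 had SDs of 0.215, 0.138, 0.135 and 0.304. Of the 6 on that list, 1 was higher in cycling cells and 3 were lower in each kit.

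Across wells the 4 RNAs were partly alike. As deviations from the sample over 48 WT wells, log2 Rn7sk had r = 0.668 with Rmrp, 0.525 with Rpph1 and 0.511 with Terc, and 0.872, 0.381 and 0.785 over the 12 Mini wells. Rpph1 and Terc had r = 0.0465 and −0.0252. The points share a library, and no p is given. Rn7sk had r = 0.0311 with the share of ribosomal RNA in the UMIs of a WT well. It had r = 0.202 with the number of cells and 0.406 with the UMIs per cell of a well. These r were 0.339, 0.506 and 0.488 in Parse Mini. With the summed histone messenger RNAs r was 0.650 in Parse WT and 0.708 in Parse Mini. With the sum of the other RNAs without a tail r was −0.220 and −0.422, so this sum did not rise with Rn7sk. Scarna2, with 142208 UMIs in Parse WT, is the largest part of that sum, and no other RNA in it exceeded 9803. The value may thus reflect mostly 1 RNA. With the contrast messenger RNAs r ran from −0.103 (Ptprc) to 0.592 (Eef1a1) in Parse WT. In Parse Mini, Rpph1 had r = 0.862 with the ribosomal RNA share, but 0.231 in Parse WT.

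The genes most like Rn7sk over the WT wells were Sh2b3 (r = 0.853), Abca7 (0.851), Dtx1 (0.819), Piezo1 (0.817) and Tpcn1 (0.816), and r in the 12 Mini wells was 0.806, 0.877, 0.578, 0.701 and 0.746. Their SDs between wells were between 0.213 and 0.322, far below the 1.82 of Rn7sk. Of the 4256 genes compared, 394 (9.26%) had r of at least 0.5 with Rn7sk and 157 had r of at most −0.5. Those most like Rpph1 were Ccnb1ip1 (0.939), Nfkb2 (0.670), Ppp5c (0.659), H2-Q4 (0.642) and Tap2 (0.639), with r of 0.824, 0.647, 0.580, 0.574 and 0.798 in Parse Mini. For Rmrp they were Abca7 (0.760), Ccnb1ip1 (0.723), Nbeal2 (0.722), Neurl4 (0.688) and Wdr1 (0.676), and for Terc Coro1c (0.709), Aup1 (0.704), Nfatc1 (0.699), Ighd (0.694) and Nup155 (0.694). Ighd, with r = 0.192 in Parse Mini from as few as 11 UMIs a well, was the exception.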

How the data were processed

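The authors deposited UMI counts per cell and gene for both Parse kits, without normalization. Their methods name split-pipe, with an mm10 index, run per sublibrary before the outputs were combined. The submitters' processing notes list mm10 and Cell Ranger, and the 10x data were not analysed here. How reads that fit several genomic copies were treated was not stated.

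All deposited cells entered the levels by well. Classes and states used cells within 500 and 25000 UMIs and up to 15% mitochondrial UMIs. They were clustered without the 4 RNAs, ribosomal RNA, mitochondrial genes and the other listed RNAs without a tail. Each gene was centred within its first-round well, and genes that differed strongly between wells were left out of the variable genes. Leiden clusters were made with igraph on neighbours from scikit-learn (2000 variable genes, 30 components, 20 neighbours, resolution 1.0). A class needed at least 3 markers, and 50% of its list, raised 1.25-fold with at least 10 UMIs. The second-best class could score at most 0.8 of the best, and the scoring rule was set after the clusters were seen. Some clusters were then left unnamed because their leading genes, looked at by eye, went against the name. Among them were 509 Mini cells that scored best as cycling-like, with Ccnb1ip1 among their leading genes. They were thus outside the states tested with clusters. No doublet caller was run, whereas the study called doublets in both Parse kits and removed them, so such cells may remain in the classes and states. Of the thymic WT cycling-like cells, 3212 lay in a cluster with a median of 13177 UMIs, at 3.94 times the median of their samples. Doublets among them were not assessed. The spread is the pooled SD of log2 CPM after adding 0.5 UMI to each well. Shares of spread are sums of squares over wells and classes with at least 20 cells. Tests used edgeR 4.0.16 with TMM library sizes and filterByExpr, with DESeq2 1.42.0 as an alternative (R 4.3.3), after a check on simulated counts. Other steps ran in Python 3.11.15 (scipy 1.17.1, numpy 2.4.6, pandas 2.3.3, matplotlib 3.10.9). Positions and sequences are from GENCODE M21 on GRCm38.

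The 4 RNAs, gene lists and tests were chosen with earlier results of these data known. Named genes are the 4 RNAs, the ribosomal RNAs, the 4 members of each list with the most UMIs and the 5 genes most correlated with each RNA over WT wells. Neighbouring genes, H2ac25 and the genes that differed 2-fold between wells in every lobe were named in addition, after their values were seen. The 4 lobes of a kit come from 2 mice, and p-values over lobes, and more so over wells, are too small.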

Additional observations from a re-analysis of the deposited data

Results flagged for a closer look

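In 16 groups of 4 samples the highest or lowest sample was compared with the rest, and in 4 of them its gap to the nearest other sample took more of the whole range than Dixon's 95% critical value allows. Chance gives such a gap in about 1 in 20 groups. All 4 lie in Parse Mini. The RNAs were chosen for unequal levels between wells, so the gaps in level describe the data and test nothing. T-2-A stood apart for Rpph1, at 924 CPM against 233 to 343 CPM in the other lobes, and T-1-A for Terc, at 7.04 CPM against 1.26 to 1.87 CPM. Each of these lobes held the 1 well far above the rest, A9 with 2143 CPM of Rpph1 and A3 with 16.1 CPM of Terc. T-2-B stood apart for Rn7sk, at 1111 CPM against 836 to 882 CPM, and held well A11 at 2450 CPM. For Rmrp the log2 ratio of cycling to resting cells was 1.36 in T-2-A, from 10 and 5 UMIs, against 0.0193 to 0.162 in the other lobes.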

How the results depend on the processing

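With all UMIs as the denominator every median level over wells was lower (thymic WT Rn7sk 1047 in place of 1432 CPM, Rpph1 570 in place of 752 CPM), by less than the SD over wells in 12 of 12. A value of the spread was called moved where it changed by at least its SE from leaving out samples in turn. That SE is wide where 1 lobe dominates, so few moved values do not show a stable spread. By this rule the spread between wells moved in 4 of 68 values under other denominators, cells, classes or pseudocounts, all in Parse Mini. These were for Rmrp 0.947 with cells that passed quality control and 0.954 with 1 fixed class composition, and for Terc 1.38 and 1.41. With lobes left out in turn the spread ran from 0.732 to 1.04 for Rpph1 and 0.327 to 0.822 for Terc in the thymic WT samples (lowest without tenxP_1). In Parse Mini it ran from 0.474 to 1.46 for Rpph1 (lowest without T-2-A) and 0.687 to 1.10 for Terc (lowest without T-1-A).

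With CPM relative to the mean, the well share in the table of wells by class was 58.1% for Rn7sk and 37.6% for Rpph1 in Parse WT, and 97.9%, 77.1% and 49.6% for Rn7sk, Rpph1 and Terc in Parse Mini. The class share was 1.89% for Rn7sk in Parse WT and 2.21% for Rpph1 in Parse Mini. In the table of wells by state the well shares were 72.2% and 40.8% in Parse WT and 98.2%, 77.3% and 53.3% in Parse Mini, and the state shares 0.262% (Rn7sk) and 4.28% (Rpph1) in Parse WT and 2.21% (Rpph1) in Parse Mini. With at least 100 cells per well and class, the well shares in Parse WT were 95.8% and 39.5%. Relative CPM weighs high wells more by construction.

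For cycling against resting cells, Rn7sk in Parse WT passed the threshold with library sizes outside ribosomal RNA and no TMM, the scale of the CPM (−0.213). It also passed with DESeq2 (−0.188), DP-R-like resting cells (−0.357) and wells as the pairing term (−0.123), and ran from −0.230 to −0.110 with lobes left out. In Parse Mini it passed with no filter (−0.175), the same library sizes outside ribosomal RNA (−0.140), DESeq2 (−0.143) and 3000 to 10000 UMIs per cell (−0.375). DP-R-like resting cells (−0.250), the gate on Mki67 or Top2a (−0.103) and wells as the pairing term (−0.0585) passed there as well. So did the fit without the cycling cluster of the highest UMIs per cell (−0.140), an alternative chosen after seeing the data. With lobes left out the Mini value of Rn7sk ran from −0.191 to −0.0790. Rpph1 in Parse Mini ran from 0.416 to 0.599 with lobes left out. Rmrp in Parse WT passed with DP-R-like resting cells (0.357). Terc in Parse WT missed the threshold under DESeq2 (0.847) and the gate (0.288), and in Parse Mini it turned to −0.0662 under the gate. The causes were not tested. Rmrp or Terc fell below the filter on low counts in some of these fits and then had no value. Shares of cells with a UMI moved in 7 of 8 values without thinning, by at least the SD over wells.

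No paired analysis was possible between the kits, because the numbers that their labels share name sublibraries, which are aliquots of 1 pool of cells. No test compared the kits. The lobes and wells used as blocks above come from the cell tables, not from these numbers. Depth limits Rmrp and Terc, with 10 to 1116 and 13 to 62 UMIs in a thymic WT well.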

Other observations

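In the 16 other WT samples, classes outside the thymocyte lineage differed from their own wells as well. Dendritic-like cells were above their well in Rpph1 in 1 of 31 wells (median log2 ratio −0.70) and plasmacytoid dendritic-like cells in 0 of 9 (−0.53). Monocyte-like cells were above their well in 5 of 40 wells for both Rn7sk (−0.19) and Rpph1 (−0.34), and NK-like cells were above it in 0 of 12 for Rn7sk (−0.16). Erythroid-like cells were above their well in Rpph1 in 29 of 35 wells (0.26) and in Rn7sk in 22 of 35 (0.18). These are medians over wells with at least 20 cells of the class, with no test.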
